A study of Mus musculus with 6 samples.

Results

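The 10 genes described here form the HIF1 axis of the cell: the oxygen-regulated subunits Hif1a and Epas1, their partner Arnt, the oxygen sensors Egln1, Egln2, Egln3 and Hif1an, the ubiquitin ligase subunit Vhl, and the hypoxia-responsive genes Bnip3 and Vegfa. They were chosen by name from the 26082 gene names of the expression table, and each of the 10 stood on 1 line of it. The rule that picks them uses names and no measured value, but it was drawn up with earlier results of these data known. RNA-Seq had been performed on leukemia cells that were isolated by cell sorting from the bone marrow of leukemic C57BL/6J mice. In all 6 samples the cells carried MLL-AF9, a fusion oncogene that was introduced into bone marrow progenitors by a retrovirus and that drives an acute myeloid leukemia (AML) in recipient mice. The 3 control samples (vehicle replicates 1 to 3) came from mice given Vehicle Control by mouth, and the 3 treated samples (DS-5272 replicates 1 to 3) from mice given DS-5272, an inhibitor that releases p53 from MDM2, orally at 80 mg/kg, 24 h before the cells were collected. The comparison asks how the genes of the axis are expressed after the inhibitor. Neither the labels nor the methods say whether each sample is a separate mouse or recipient of the same leukemia, so the p-values measure the spread between these samples.

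HIF is a transcription factor made of an oxygen-regulated alpha subunit (HIF1α from Hif1a, HIF2α from Epas1) and a constant beta subunit (from Arnt). When oxygen is present, the prolyl hydroxylases encoded by Egln1, Egln2 and Egln3 (PHD2, PHD1 and PHD3) modify the alpha subunit, which the VHL ubiquitin ligase then marks for degradation, and FIH (from Hif1an) modifies it at an asparagine that co-activators need. When oxygen or the hydroxylases are lacking, the alpha subunit accumulates and turns on genes of glycolysis, angiogenesis (Vegfa), mitophagy (Bnip3) and, as a feedback, Egln1 and Egln3. Because most of this control acts on protein, the mRNA levels below do not measure HIF activity.

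HIF binds short DNA elements whose core is ACGTG or GCGTG, and the promoters of the 2 genes that changed, Hif1a and Egln3, and of Bnip3, a classical HIF target, are shown as examples of how these cores lie around the start site. Each window holds 250 bases before and 50 bases after the start site in RefSeq (GRCm38.p6) and is written 5′ to 3′ on the strand of the gene, with every match to a core on either strand in capitals (CACGT and CACGC are the cores of the opposite strand). The windows are chr12:73907617-73907916 on the plus strand for Hif1a, chr12:54203825-54204124 on the minus strand for Egln3 and chr7:138909457-138909756 on the minus strand for Bnip3.
Hif1a: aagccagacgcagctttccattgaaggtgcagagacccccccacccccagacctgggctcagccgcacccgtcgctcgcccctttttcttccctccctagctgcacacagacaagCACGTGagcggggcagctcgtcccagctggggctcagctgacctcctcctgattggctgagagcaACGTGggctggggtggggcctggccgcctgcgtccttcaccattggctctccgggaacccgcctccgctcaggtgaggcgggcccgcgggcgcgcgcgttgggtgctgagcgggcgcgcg
Egln3: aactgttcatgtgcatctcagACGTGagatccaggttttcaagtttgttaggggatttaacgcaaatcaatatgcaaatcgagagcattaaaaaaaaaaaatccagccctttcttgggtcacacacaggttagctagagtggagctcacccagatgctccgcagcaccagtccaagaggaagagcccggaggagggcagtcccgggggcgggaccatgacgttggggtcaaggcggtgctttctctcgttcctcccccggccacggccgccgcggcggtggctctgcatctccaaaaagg
Bnip3: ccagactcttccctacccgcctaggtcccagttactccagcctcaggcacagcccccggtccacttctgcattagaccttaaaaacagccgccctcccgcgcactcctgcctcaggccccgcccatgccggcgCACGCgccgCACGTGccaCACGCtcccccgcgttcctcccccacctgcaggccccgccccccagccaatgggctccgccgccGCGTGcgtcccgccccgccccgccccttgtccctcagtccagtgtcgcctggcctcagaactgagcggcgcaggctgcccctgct

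In the Hif1a window, 3 matches began at positions -135, -134 and -70 from the start site, the first pair being the palindrome CACGTG read on both strands. The Egln3 window held 1 match, at -229, and the Bnip3 window held 5, at -117, -108, -107, -99 and -35, of which the -108 and -107 matches are again 1 palindrome. Of the 10 genes, 9 had a RefSeq promoter entry, Epas1 being the other, and with the second promoters of Egln2 and Vegfa these made 11 windows. A core was found in 8 of the 11 windows (72.7%), against 43.8% of all 32851 RefSeq promoters of this length and 62.6% of the 9502 promoters of genes tested below. The 2 Egln2 windows held 6 and 1 matches, the Egln1 window 2, the Arnt window 1 and the 2 Vegfa windows 2 and 0, while the windows of Vhl and Hif1an held none. The Vegfa window with 2 matches lies inside the annotated gene, and the Vegfa window at the 5′ end of the annotated gene held none. The Egln2 window with 1 match and the Hif1a window also lie inside the span of their annotated genes. At least 3 matches were found in 8.93% and at least 5 in 1.66% of all promoters. These shares were not computed for the promoters of genes tested, in which a core was more frequent. The match to 5 letters describes the sequence and says nothing of binding.

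**Figure D1:**
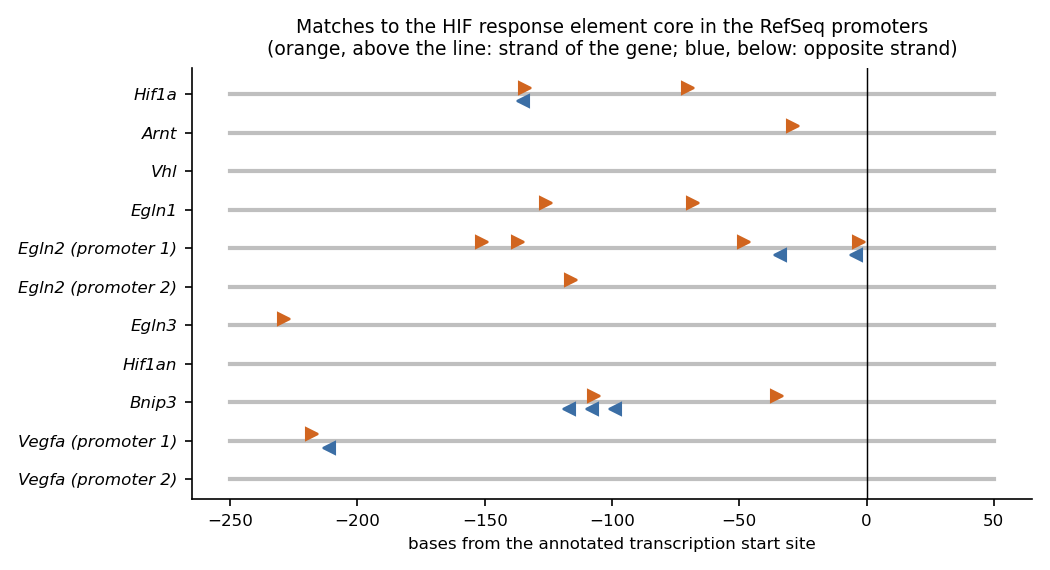
Positions of the HIF core letters in the 11 RefSeq promoter windows of 9 of the 10 genes, with bases from the start site on the x axis. Triangles above a line lie on the strand of the gene and those below it on the opposite strand. Egln2 (promoter 1) and Bnip3 hold the most matches, 6 and 5, and the windows of Vhl, Hif1an and Vegfa (promoter 2) hold none.

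Expression was measured as FPKM, the fragments of a gene divided by the length of its transcript and by the mapped fragments of the library. All FPKM values of a sample summed to between 445316 and 501241 with vehicle and between 499229 and 661184 with DS-5272. The depth relative to vehicle replicate 1, read from the steps in which low values occur, was 0.812 and 0.889 in the other vehicle samples and 0.536 to 0.742 in the DS-5272 samples, so that the treated samples were all shallower. Of the p53 targets, Cdkn1a, which encodes the cell cycle inhibitor p21, measured 14.8, 28.1 and 25.5 FPKM in vehicle replicates 1 to 3 and 32.3, 117 and 485 FPKM in DS-5272 replicates 1 to 3, and Mdm2 measured 27.1, 36.3 and 40.0 and then 42.6, 78.8 and 210 FPKM. Both lay higher in every treated sample than in any control sample, least so in DS-5272 replicate 1, with adjusted p = 0.061 and 0.073 (limma), and 0.014 and 0.015 when samples with the same number were paired. That pairing was inferred from these data and is not stated in the labels. Summed markers of mature neutrophils and monocytes ranged from 1234 to 2940 FPKM with vehicle and from 4939 to 17580 FPKM with DS-5272. Of the 13, 9 rose and none fell, beside 24.2% higher and 22.0% lower among all genes tested. S100a8 and S100a9 were the largest parts of each treated sum, at 1542 to 5953 and 1109 to 6366 FPKM. Ly6c2, the largest part with vehicle, went from 842 to 906 FPKM to 497 to 898 FPKM (log2 fold change -0.39, adjusted p = 0.19, limma). Camp, Ngp and Cebpe did not pass either (adjusted p = 0.35, 0.18 and 0.86, limma). With samples of the same number paired, Camp and Ngp passed (adjusted p = 0.020 and 0.0024, limma). Summed bone marrow macrophage markers ranged from 78.4 to 136 FPKM and from 218 to 486 FPKM, and 5 of the 10 tested rose. The largest parts of this sum in DS-5272 replicates 2 and 3 were Vcam1 (74.8 and 85.7 FPKM) and Adgre1 (79.1 and 116 FPKM). Vcam1 did not pass (adjusted p = 0.13, limma). DS-5272 replicate 1 stood apart in the macrophage sum and in the erythroid markers. The erythroid markers summed to 146 FPKM in it, to 12.7 and 27.4 FPKM in the other treated samples and to 2.47 to 4.63 FPKM with vehicle. Of 4 tested markers of leukemia and progenitor cells 1 fell and none rose, with a median log2 fold change of -0.05 and sums of 382 to 444 FPKM with vehicle and 361 to 379 FPKM with DS-5272. The one that fell was Kit, the stem cell factor receptor, which measured 45.0, 32.3 and 30.5 FPKM with vehicle and 12.1, 9.70 and 4.94 FPKM with DS-5272 (log2 fold change -1.96, adjusted p = 0.0046, limma), whereas Cd34, Meis1 and Myb had log2 fold changes of 0.18, 0.24 and -0.27 (adjusted p = 0.41, 0.31 and 0.12). Summed endothelial and stromal markers ranged from 29.1 to 60.0 FPKM with vehicle and from 73.4 to 112 FPKM with DS-5272. Most of this sum was Pecam1, which leukocytes also express and which rose from 26.4 to 58.8 FPKM to 68.3 to 109 FPKM (log2 fold change 1.19, adjusted p = 0.025, limma), while the defining endothelial genes Cdh5, Kdr, Tek and Emcn stayed under 0.1 FPKM in every sample.

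At the level of mRNA, Hif1a rose 2.11-fold in the DS-5272-treated cells and Egln3 fell to 0.314 of its vehicle level, while the other members that could be tested did not pass the threshold. Among the 9 members whose mean over all samples reached 1 FPKM, 1 rose, 1 fell and 7 missed an adjusted p of 0.05 in the limma test, and Epas1 lay below that level. Of all 11130 genes tested, 46.3% were called, 24.2% as higher and 22.0% as lower, so that a call was common and 2 calls among 9 genes are below the share of all genes. The samples of the groups did not overlap for 4 members (Hif1a, Arnt, Egln3 and Bnip3), against 61.8% of all genes tested. The median log2 fold change of the 9 genes was 0.19, beside 0.04 for all genes tested.

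**Figure D2:**
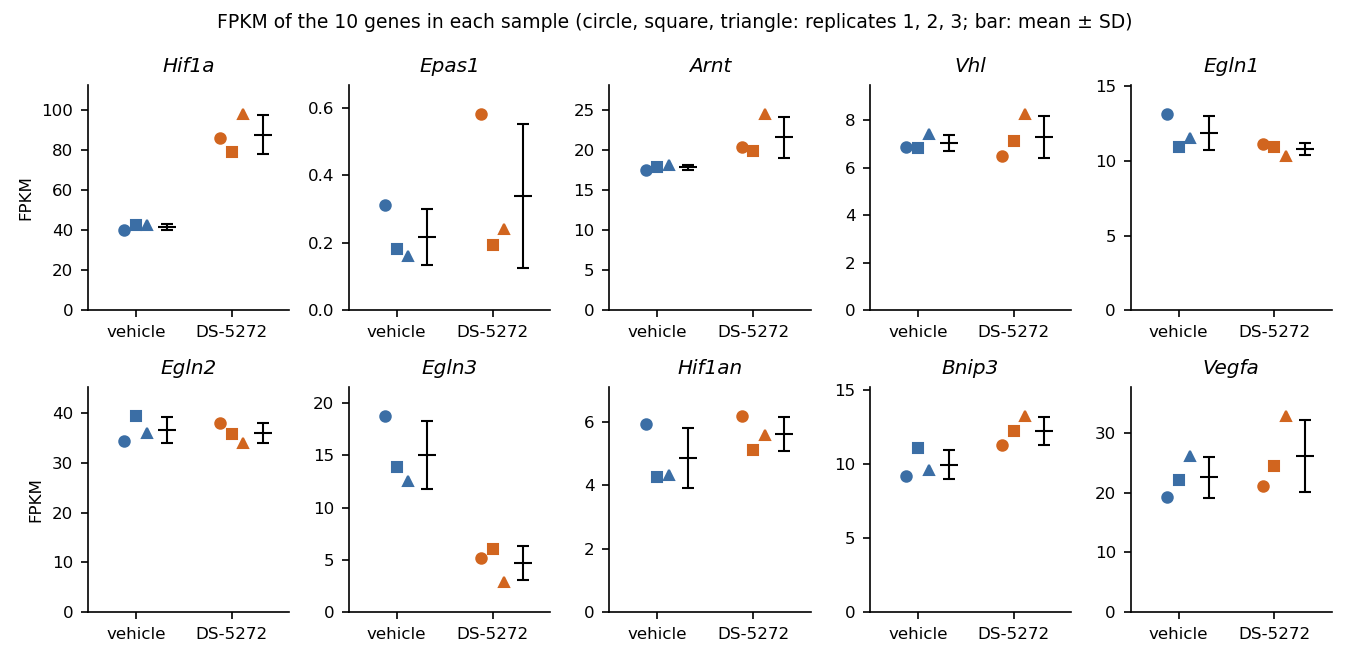
FPKM of the 10 genes in each of the 6 samples, 1 panel per gene with its own linear axis from 0, with vehicle in blue and DS-5272 in orange. Circles, squares and triangles are replicates 1, 2 and 3, and the black bars give the mean ± SD (n = 3). Hif1a in all treated samples lies above 79 FPKM and Egln3 below 6.1 FPKM, each clear of the vehicle samples.

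Hif1a, the alpha subunit of HIF1 (ENSMUSG00000021109.13, GRCm38 chr12:73901375-73947530, plus strand), had the highest level of the 10 genes in both groups. It measured 39.8, 42.4 and 42.6 FPKM in vehicle replicates 1 to 3 and 86.0, 79.2 and 98.0 FPKM in DS-5272 replicates 1 to 3. All treated samples lay far above all control samples, and the vehicle samples lay close together, with 41.6 ± 1.56 FPKM against 87.7 ± 9.54 FPKM (mean ± SD, n = 3 each). The log2 fold change on the scale of log2(FPKM + 1) was 1.05 with a standard error of 0.11 and a 95% interval from 0.80 to 1.31 (adjusted p = 0.0016, limma). In the same-numbered pairs the log2 ratio of FPKM was 1.11, 0.90 and 1.20, so that DS-5272 replicate 1, in which the p53 targets were least raised, had a Hif1a rise between those of the other pairs. Without that sample the log2 fold change was 1.07 (adjusted p = 0.0043, limma), and in 17 alternative analyses it ranged from 0.79 to 1.12 and always passed the threshold. By size, its rise was number 989 among the 11130 genes tested. The summed neutrophil and monocyte markers were higher in the same treated samples, and their part in the rise of Hif1a was not tested. As in any sample of many cells, more cells of a type and more RNA per cell cannot be told apart. Some Hif1a exons overlap the annotated genes Gm15283 and Gm49321, which have no entry of their own, and whether fragments were counted by strand is not given in the sources used here.

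Epas1, which encodes HIF2α (chr17:86753700-86833410, plus strand), was barely present in these cells. Its level was 0.312, 0.181 and 0.160 FPKM with vehicle and 0.581, 0.192 and 0.240 FPKM with DS-5272. The groups overlapped, and the highest value stood in DS-5272 replicate 1, where the macrophage markers were also highest, at 486 FPKM in sum, with Cd5l, a macrophage gene, at 61.7 FPKM against 0.242 to 4.43 FPKM elsewhere. The part of such cells in the Epas1 level was not tested. In the fit without a filter on low values the log2 fold change of Epas1 was 0.13 with a 95% interval from -0.16 to 0.41 (adjusted p = 0.48, limma). The alpha subunit mRNA of these leukemia cells was therefore almost all Hif1a in both groups.

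Arnt, the constant partner of both alpha subunits (chr3:95434388-95497240, plus strand), measured 17.5, 17.9 and 18.1 FPKM with vehicle and 20.4, 19.9 and 24.5 FPKM with DS-5272. Every treated sample was above every control sample, but the difference was small, at 0.26 on the log2 scale (standard error 0.11, 95% interval 0.0015 to 0.51), and missed the threshold (adjusted p = 0.089, limma). The ratio of Hif1a to Arnt FPKM within a sample, which no scaling between samples can alter, was 2.27, 2.37 and 2.36 with vehicle and 4.22, 3.98 and 4.0 with DS-5272. This ratio varied little within each group and rose by 0.80 on the log2 scale (exact permutation test, two-sided, p = 0.1, adjusted over the 5 ratios 0.167). With 3 samples against 3, the exact permutation test cannot go below p = 0.1.

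Of the prolyl hydroxylases that hydroxylate the alpha subunit, Egln3 fell and the other two did not pass the test. Egln3 (PHD3, chr12:54178981-54203860, minus strand) measured 18.7, 13.8 and 12.6 FPKM with vehicle and 5.22, 6.06 and 2.89 FPKM with DS-5272. The groups were well apart, with DS-5272 replicate 3 the lowest, and the means were 15.0 ± 3.24 and 4.73 ± 1.64 FPKM (SD, n = 3 each). Its log2 fold change was -1.51 with a standard error of 0.25 and a 95% interval from -2.11 to -0.91 (adjusted p = 0.0055, limma), and by size its fall was number 232 among the genes tested. The call held in all 17 alternative analyses, with log2 fold changes from -1.74 to -1.26, and without DS-5272 replicate 1 it was -1.59 (adjusted p = 0.011, limma). Of the progenitor markers, Kit and Myb were also lower in every treated sample, but Myb did not pass (adjusted p = 0.12, limma). Cd34 and Meis1 overlapped between the groups and did not pass. The part of a change in cell types in the fall of Egln3 was not tested.

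Egln1 (PHD2, chr8:124908587-124949324, minus strand), regarded as the main oxygen sensor of most cells, measured 13.2, 11.0 and 11.5 FPKM with vehicle and 11.1, 10.9 and 10.4 FPKM with DS-5272. The ranges met, and the log2 fold change of -0.12 had a 95% interval from -0.37 to 0.13 (adjusted p = 0.36, limma). Egln2 (PHD1, chr7:27158658-27166802, minus strand), the most abundant of the hydroxylase mRNAs, measured 34.3, 39.3 and 36.0 FPKM and then 37.9, 35.8 and 33.9 FPKM. Its groups lay within each other, with a log2 fold change of -0.03 and a 95% interval from -0.26 to 0.21 (adjusted p = 0.84, limma). Some Egln2 exons overlap Cyp2t4 on the other strand, which had a mean of 0.384 FPKM.

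Together the 3 prolyl hydroxylases summed to 66.2, 64.1 and 60.1 FPKM with vehicle and to 54.3, 52.7 and 47.2 FPKM with DS-5272, so that the sum was lower in every treated sample. Egln3 made up 28.3, 21.6 and 20.9% of the sum with vehicle and 9.61, 11.5 and 6.13% with DS-5272. Egln2 made up 51.9, 61.3 and 59.9% and then 69.9, 67.8 and 71.9%, and Egln1 held 17.1 to 19.9% and 20.5 to 22.0%. The ratio of Egln3 to Egln1 within a sample was 1.42, 1.26 and 1.09 with vehicle and 0.468, 0.556 and 0.279 with DS-5272, a log2 difference of -1.58 (exact permutation test, p = 0.1, adjusted 0.167). Egln3 thus stood above Egln1 in each vehicle sample and below it in each treated sample. The ratio of Egln2 to Egln1 went from 2.61, 3.59 and 3.12 to 3.4, 3.28 and 3.27, with overlapping groups and a log2 difference of 0.11 (exact permutation test, p = 0.7, adjusted 0.7) that became -0.013 without vehicle replicate 1.

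**Figure D3:**
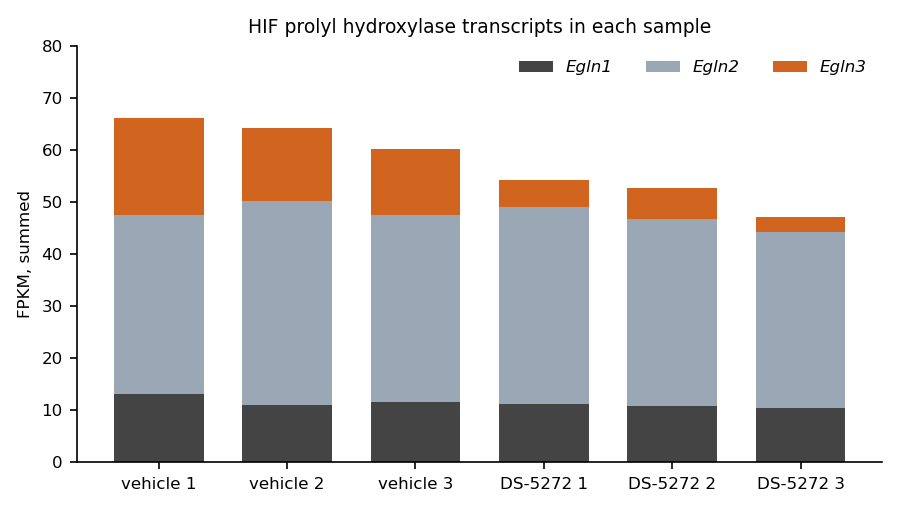
FPKM of Egln1, Egln2 and Egln3 stacked in each of the 6 samples, with the summed FPKM on a linear axis from 0. The Egln3 segment shrinks from 12.6 to 18.7 FPKM with vehicle to 2.89 to 6.06 FPKM with DS-5272, while the Egln1 and Egln2 segments overlap between the groups.

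Hif1an, which encodes the asparagine hydroxylase FIH (chr19:44562850-44576274, plus strand), measured 5.93, 4.28 and 4.34 FPKM with vehicle and 6.17, 5.11 and 5.59 FPKM with DS-5272. Treated and control ranges overlapped through vehicle replicate 1, and the log2 fold change was 0.19 with a 95% interval from -0.16 to 0.54 (adjusted p = 0.32, limma). Vhl, the substrate receptor that binds the hydroxylated alpha subunit (chr6:113623959-113631633, plus strand), measured 6.89, 6.84 and 7.44 FPKM and then 6.51, 7.15 and 8.28 FPKM. Its treated samples lay on both sides of the control samples, at a log2 fold change of 0.04 with a 95% interval from -0.24 to 0.32 (adjusted p = 0.79, limma).

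Of the hypoxia readouts, neither Bnip3 nor Vegfa passed the threshold. Bnip3, a mitophagy receptor of the outer mitochondrial membrane (chr7:138890836-138909519, minus strand), measured 9.18, 11.1 and 9.61 FPKM with vehicle and 11.3, 12.2 and 13.2 FPKM with DS-5272. All treated samples were above all control samples, by a narrow gap between vehicle replicate 2 and DS-5272 replicate 1, and the log2 fold change was 0.27 (standard error 0.11, 95% interval 0.0074 to 0.54, adjusted p = 0.084, limma). Some exons of Bnip3 overlap the antisense gene Gm45507. Vegfa, the angiogenic growth factor (chr17:46016993-46032369, minus strand), measured 19.3, 22.2 and 26.1 FPKM and then 21.1, 24.4 and 32.7 FPKM. The groups overlapped, although Vegfa was higher with DS-5272 in all 3 same-numbered pairs, with log2 ratios of 0.12, 0.14 and 0.32. Its log2 fold change was 0.19 with a 95% interval from -0.25 to 0.63 (adjusted p = 0.42, limma, and 0.15 with samples of the same number paired). The upper bounds of both intervals lie below the log2 fold change of 1.05 measured for Hif1a, whose own 95% interval ran from 0.80 to 1.31. These are mRNA levels, and whether HIF activity changed was not tested.

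**Figure D4:**
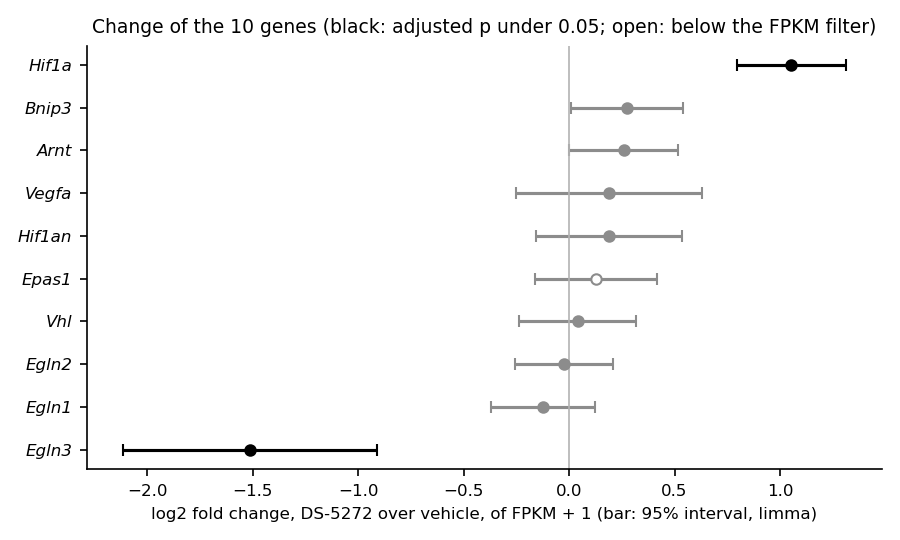
Log2 fold change of FPKM + 1, DS-5272 over vehicle, for the 10 genes in order of size, with 95% intervals from limma. Black points pass an adjusted p of 0.05, gray points do not, and the open point is Epas1, taken from the fit without a filter. Hif1a at 1.05 and Egln3 at -1.51 stand apart from the other genes, which lie between -0.12 and 0.27.

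The order of levels by mean FPKM was Hif1a, Egln2, Vegfa, Arnt, Egln3, Egln1, Bnip3, Vhl, Hif1an and Epas1 with vehicle. Arnt and Egln3, Egln3 and Egln1, and Egln1 and Bnip3 overlapped in their ranges and are not separated, whereas the other neighbours did not overlap. With DS-5272 the order was Hif1a, Egln2, Vegfa, Arnt, Bnip3, Egln1, Vhl, Hif1an, Egln3 and Epas1, and only Vegfa and Arnt, and Hif1an and Egln3, overlapped. Egln3 thus moved from the fifth place to the ninth. Among all genes tested, Hif1a lay at the 86.6th percentile of mean level, Vegfa at the 64.9th and Hif1an, the lowest member tested, at the 23.9th.

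Scaling between samples matters for the small differences, because the FPKM sums differed between the groups. When each sample was rescaled to a common total, the median log2 fold change of all genes tested moved from 0.04 to -0.19. In that fit, tested against 0, Hif1a was still higher at 0.79 (adjusted p = 0.0041, limma) and Egln3 lower at -1.74 (adjusted p = 0.0072, limma). Arnt and Bnip3 were then at 0.0040 and 0.030, and Vegfa, Hif1an and Vhl turned to -0.07, -0.04 and -0.20, with none of these 5 past the threshold. The change of scale lowered the median of all genes as well, though with 1 added to each FPKM the shift was not the same for every gene. Vegfa and Hif1an were above the median of all genes under both scalings, and Vhl lay near it under both. The sign of these 3 genes against 0 therefore largely follows that shift.

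The other proteins of the HIF machinery were read from lists of genes. Of 7 further subunits and co-activators, 5 could be tested, 2 rose and none fell, with a median log2 fold change of 0.48. Of all genes tested, 24.2% were called higher and 46.3% were called in either direction. At a common total 1 gene of this list rose, beside 1713 of all 11130 genes tested, and the median was 0.23. The co-activators Ncoa1 (7.13, 9.46 and 9.21 FPKM with vehicle, 12.4, 13.9 and 22.1 FPKM with DS-5272) and Ep300, the acetyltransferase p300 (25.5, 21.3 and 22.5, then 30.4, 28.9 and 40.3 FPKM), lay higher in all treated samples. Their log2 fold changes were 0.80 (adjusted p = 0.024) and 0.49 (adjusted p = 0.033, limma), but both calls were lost when any vehicle sample was left out. The call of Ep300 was also lost at a common total, at a common upper quartile and without the filter. Cited2, which competes with HIF1α for p300, measured 59.0, 97.5 and 110 FPKM and then 63.4, 86.6 and 107 FPKM, with a log2 fold change of -0.03 (adjusted p = 0.93, limma). The other alpha subunit gene, Hif3a, lay below the filter with 0.554 to 1.21 FPKM and then 0.332 to 0.462 FPKM, and the neuronal partner Arnt2 was listed at 0 in all samples.

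Of 10 genes that act on the stability of the alpha subunit, among them the partners of VHL in its ligase (Elob, Eloc, Cul2 and Rbx1), 1 rose and none fell, with a median of 0.08. This 1 call of 10 is a smaller share than the 46.3% of all genes. The riser was Os9, a lectin of the endoplasmic reticulum that was described as a partner of prolyl hydroxylases, with 82.5, 96.2 and 95.1 FPKM and then 122, 118 and 135 FPKM (log2 fold change 0.45, adjusted p = 0.016, limma). That call was lost at a common total, after quantile normalization and without vehicle replicate 1 or 3. With same-numbered samples paired, 3 of the 10 rose, beside 3367 of all 11130 genes tested. At a common total none rose and 3 fell, beside 1713 and 3555 of all genes. Of 4 other oxygen-dependent dioxygenases, 2 could be tested and neither passed, with unpaired adjusted p = 0.084 for the histone demethylase Kdm6a and 0.43 for the thiol dioxygenase Ado (limma), and 1 rose when pairs were used.

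The target genes of HIF outside glycolysis went in both directions. Of 39 listed genes, 26 could be tested, 8 rose, 4 fell and 14 did not pass, with a median log2 fold change of 0.25, and 3 of the 13 below the filter were listed at 0. These 12 calls of 26 are a share close to the 46.3% of all genes. Taken by direction, 8 of 26 lie somewhat above the 24.2% called higher, and 4 of 26 somewhat below the 22.0% called lower. Hmox1, heme oxygenase 1, measured 17.0, 16.0 and 18.3 FPKM with vehicle and 104, 99.7 and 101 FPKM with DS-5272, a 5.94-fold rise with little spread in either group (log2 fold change 2.50, adjusted p = 0.00018, limma). Bhlhe40, a transcriptional repressor, rose by 2.43 on the log2 scale (adjusted p = 0.026, limma), from 4.49, 12.7 and 13.4 FPKM to 19.5, 69.5 and 117 FPKM, and lost its call without a filter, without vehicle replicate 1 or 2 and without DS-5272 replicate 2 or 3. Cd274, which encodes the immune checkpoint ligand PD-L1, measured 5.88, 5.63 and 5.06 FPKM and then 20.5, 21.9 and 32.5 FPKM (log2 fold change 1.97, adjusted p = 0.0012, limma). An antisense gene overlaps its exons.

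In the other direction, Car12, a carbonic anhydrase of the cell surface, fell from 2.31, 3.02 and 2.57 FPKM to 1.01, 0.940 and 0.172 FPKM (log2 fold change -1.13, adjusted p = 0.010, limma). Car9, the carbonic anhydrase often used as a marker of hypoxia, measured 3.4, 2.69 and 3.57 FPKM and then 4.71, 3.47 and 3.18 FPKM, with overlapping groups (log2 fold change 0.17, adjusted p = 0.40, limma). The remaining calls, named after their values were seen, were Nfil3, Fam162a, P4ha1, Ndrg1 and Plod1 among the risers and Tfrc, Zfp395 and Ero1a among the fallers. P4ha1 and Plod1, hydroxylases of collagen, measured 6.00 to 6.47 FPKM and 28.5 to 29.6 FPKM with vehicle and 13.2 to 16.8 FPKM and 40.9 to 51.1 FPKM with DS-5272. Ndrg1, a stress-responsive gene, measured 21.3 to 22.8 FPKM and 37.6 to 47.8 FPKM, and Fam162a, a mitochondrial protein gene, 40.5 to 46.3 FPKM and 78.0 to 104 FPKM. Nfil3 measured 18.1 to 42.6 FPKM and 55.1 to 158 FPKM. Among the fallers, Tfrc measured 13.5 to 19.6 FPKM with vehicle and 6.08 to 13.5 FPKM with DS-5272. Zfp395 measured 5.16 to 6.19 FPKM and 2.55 to 3.23 FPKM, and Ero1a 47.0 to 55.9 FPKM and 40.1 to 41.6 FPKM. At a common total, 7 of the 26 rose and 7 fell, beside 1713 and 3555 of all 11130 genes tested.

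Glucose transport and glycolysis, the best known output of HIF1, gave 5 higher and 1 lower call among 18 tested genes of 20, with a median of 0.37 that was 0.117 at a common total. These 6 calls of 18 are a smaller share than the 46.3% of all genes. By direction, 5 of 18 lie near the 24.2% of all genes called higher, and 1 of 18 lies below the 22.0% called lower. The bifunctional regulators of glycolysis Pfkfb4 (2.53, 4.29 and 5.01 FPKM, then 6.67, 8.58 and 10.8 FPKM) and Pfkfb3 (22.8, 25.8 and 24.7, then 35.0, 31.3 and 40.2 FPKM) rose by 0.98 and 0.51 on the log2 scale (adjusted p = 0.017 and 0.014, limma). Hexokinase 2, from Hk2, went from 23.0, 26.2 and 24.5 FPKM to 36.8, 34.3 and 33.6 FPKM (log2 fold change 0.49, adjusted p = 0.0082, limma). The calls of Pfkfb3 and Hk2 were lost at a common total. Ldha, which encodes the lactate dehydrogenase subunit that makes lactate from pyruvate, was lower in every treated sample, with 352, 401 and 360 FPKM and then 258, 317 and 221 FPKM (log2 fold change -0.50, adjusted p = 0.038, limma), and lost its call in 7 of 17 alternatives. The counts of this list were not stable. With same-numbered samples paired, 11 rose and 2 fell, beside 3367 and 2771 of all 11130 genes tested. At a common total 1 rose and 3 fell, beside 1713 and 3555 of all genes. Without vehicle replicate 1 only 2 rose, beside 1940 of all genes.

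Vegfb and Pgf, ligands of the VEGF receptor Flt1 like Vegfa itself, changed in opposite directions. Vegfb measured 6.18, 7.32 and 6.70 FPKM with vehicle and 3.75, 2.48 and 1.36 FPKM with DS-5272, a log2 fold change of -1.19 (adjusted p = 0.010, limma). Pgf measured 1.79, 1.98 and 1.79 FPKM and then 3.89, 2.72 and 3.65 FPKM (log2 fold change 0.62, adjusted p = 0.014, limma), a call lost at a common total and without vehicle replicate 3. These were the 2 calls among 4 tested genes of 9 VEGF ligands and receptors, beside 46.3% of all genes called, and the median was 0.24. The ratio of Vegfa to Vegfb rose from 3.13, 3.02 and 3.90 to 5.63, 9.85 and 24.1, a log2 difference of 1.73 without overlap (exact permutation test, p = 0.1, adjusted 0.167). The main endothelial VEGF receptor Kdr was under 0.1 FPKM in all samples.

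Among 9 other mitophagy receptors and adaptors 8 could be tested, 1 rose and 1 fell, with a median of 0.29, a smaller share of calls than the 46.3% of all genes. Fundc1, a receptor that acts in hypoxia, rose from 11.0, 8.63 and 10.1 FPKM to 15.4, 14.0 and 18.5 FPKM (log2 fold change 0.64, adjusted p = 0.011, limma), a call lost at a common total. Phb2, an inner membrane receptor, fell from 133, 143 and 141 FPKM to 87.5, 104 and 74.8 FPKM (log2 fold change -0.65, adjusted p = 0.0099, limma), and its exons overlap Gm23547 and Gm15884. Bnip3l, the paralog of Bnip3 known as NIX, was far more abundant than Bnip3, with 59.8, 87.4 and 101 FPKM and then 82.4, 105 and 147 FPKM. Its groups overlapped, with a log2 fold change of 0.42 and adjusted p = 0.23 (limma), or 0.014 with samples paired. The ratio of Bnip3 to Bnip3l went from 0.154, 0.127 and 0.0949 to 0.137, 0.116 and 0.0899, a log2 difference of -0.12 (exact permutation test, p = 0.7, adjusted 0.7) that turned to 0.040 without vehicle replicate 1 and to 0.041 without DS-5272 replicate 3. With samples paired, 4 genes of this list rose, beside 3367 of all 11130 genes tested. Without DS-5272 replicate 1 there were 3 risers, beside 2934 of all genes.

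**Figure D5:**
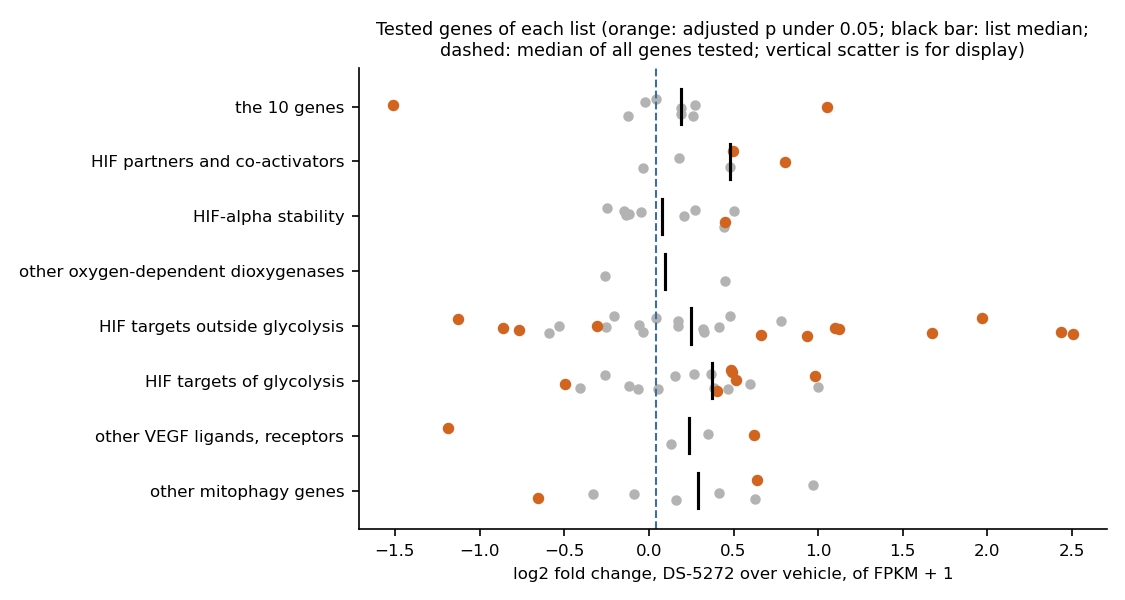
Log2 fold change of FPKM + 1, DS-5272 over vehicle, for every tested gene of the 10 members and of 7 lists of HIF-related genes. Orange points pass an adjusted p of 0.05, black bars are the list medians and the dashed line is the median of all genes tested, 0.04. The targets outside glycolysis spread the widest, from Car12 at -1.13 to Hmox1 at 2.50.

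The genes whose log2(FPKM + 1) values were most like those of Hif1a over the 6 samples were Npc2, a cholesterol-binding protein of the lysosome, 3110002H16Rik and Itfg3, with Pearson correlations of 0.9998, 0.9996 and 0.9993. Npc2 measured 80.1, 85.2 and 83.6 FPKM with vehicle and 163, 150 and 184 FPKM with DS-5272. Such likeness was not rare, since 202 tested genes exceeded a correlation of 0.99 with Hif1a. The nearest genes to Bnip3 were D830044I16Rik, Atp1b3, a subunit of the sodium pump, and the histone demethylase Kdm4b, at 0.9924, 0.9895 and 0.9842. For Vegfa they were Cpa6, Chmp2b and Ffar2, at 0.9899, 0.9896 and 0.988. All points share the same 6 libraries, so these values describe the libraries and carry no test.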

How the data were processed

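RNA-Seq libraries were made from total RNA with a strand-specific kit and sequenced from both ends. After trimming, the authors aligned the reads to GRCm38 (TopHat2 2.1.1) and derived the FPKM of each gene (Cufflinks 2.2.1), according to their methods and processing notes. The deposited FPKM values are not counts, so no count model was used, and depth is known only in relative terms. Whether counting used strand is not given in the sources used here, so a gene whose exons overlap another may include its fragments. The table held 26632 lines, of which lines sharing a name (435 names) were summed, while 433 lines that join several genes were left as they stand.

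Groups were compared with limma 3.58.1 (R 4.3.3, lmFit and eBayes with a trend, two-sided) on log2(FPKM + 1) for genes that averaged 1 FPKM or more, adjusted by Benjamini-Hochberg over all 11130 genes, with a threshold of 0.05. Fold changes on this scale understate those of low genes. Ratios of genes within a sample were compared with the exact permutation test, adjusted over 5 ratios. The script was tested on simulated data. Python 3.11.15, pandas 2.3.3, scipy 1.17.1 and matplotlib 3.10.9 were used for the rest.

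The members and the lists were chosen with earlier results of these data known. Named were the members, per list up to 3 genes that moved most toward the sign of the list median and 1 that moved most against it, if past the threshold without overlap, the 3 nearest genes by correlation, Cd274 and the p53 targets. Other genes were named for their role or after their values were seen (Cited2, Hif3a, Arnt2, Kdm6a, Ado, Car9, Bnip3l and the cell type markers). Symbols, coordinates and overlaps come from the GENCODE M21 annotation of GRCm38 and promoters from RefSeq.

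The replicate numbers run from 1 to 3 in both groups. Deviations from the group means correlated at 0.66, 0.21 and 0.43 between samples numbered alike and at -0.58 to 0.34 between the others. The numbers were treated as pairs on this ground, a pairing read from these data and not stated in the labels. It is only weakly borne out, since vehicle replicate 2 correlated at 0.34 with DS-5272 replicate 3 and at 0.21 with DS-5272 replicate 2. Because the pairs were chosen from the same data, the paired p-values are descriptive and lend no separate support.

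Other settings tried were dropping the filter or raising it to 5 FPKM, adding 0.1 in place of 1, giving the samples the same total, upper quartile or median ratio, quantile normalization, the replicate block, leaving the trend out, asking for a log2 fold change of 1, keeping the highest line per name, and omitting each sample in turn.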

Additional observations from a re-analysis of the deposited data

How the results depend on the processing

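Each of the 9 tested members kept its side of the threshold in all 17 alternatives, so the counts of 1 riser and 1 faller did not move. Of all genes, 2697 rose and 2451 fell. At a common total 1713 rose, with a log2 fold change of at least 1 978 rose and 621 fell, and leaving out 1 sample gave 1623 to 2934 risers and 1389 to 2432 fallers, the lowest pair without vehicle replicate 2 (1492 fallers without vehicle replicate 3). Risers made up 52.4% of calls, but 41.3% at a common upper quartile and 32.5% at a common total, where the median of all genes moved from 0.04 to -0.08 and -0.19. With the replicate block, 3367 genes rose and 2771 fell, and the members were as before. Of the genes named by the rule, Cdkn1a, Mdm2 and Cpa6 changed their calls (for Cpa6, adjusted p = 0.48 without the block and 0.044 with it, limma). Among the other genes named, Bnip3l, Kdm6a, Myb, Cd5l, Camp and Ngp changed theirs. Leaving out samples, the log2 difference of Egln2 to Egln1 ran from -0.013 (without vehicle replicate 1) to 0.217 and that of Bnip3 to Bnip3l from -0.307 to 0.041, above 0 without vehicle replicate 1 (0.040) and without DS-5272 replicate 3. Counts of short lists moved most: the glycolysis list had 2 to 9 risers when 1 sample was left out (9 without DS-5272 replicate 1), the targets outside glycolysis 6 to 9 risers and 2 to 4 fallers, and the co-activator list 0 to 3 risers.

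With 3 samples a side and no read counts, differences within the intervals given cannot be resolved, genes near 1 FPKM are the least certain, and the treated samples are all shallower, so depth and treatment cannot be told apart for them. These RNA-Seq data do not measure protein or HIF activity.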
